A study of Mus musculus with 16 samples.

Results

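Prostaglandins are lipid signals that ovarian granulosa cells make and sense around ovulation, and 9 genes of this system were followed through RNA-seq of mouse granulosa cells (mGCs). The genes were chosen by name as Pla2g4a, Ptgs1, Ptgs2, Ptges, Ptgis, Hpgd, Ptger2, Ptger4 and Ptgfr, out of 57010 genes in each of the deposited count tables, and all 9 had enough reads to be tested in both experiments. In the first experiment, mGCs were taken straight from the ovary of 5 ICR mice of the endometriosis model (EM-mGCs), which carried allografted endometrial tissue, and from 5 sham-operated ICR mice (Con-mGCs). Recipients were operated on at 6 weeks of age, kept their ovaries and received 200 µg/kg of estradiol every other day over 14 days. They went through ovulation induction on day 30 with pregnant mare serum or human chorionic gonadotropin. Which of these hormones the sequenced cells had seen was not spelled out, nor whether sham-operated mice also received estradiol. In the second experiment, mGCs of 6 EM mice were split into parts and cultured in DMEM/F12 with 5% serum. They were kept for 24 h with 100 nM 14,15-EET (EET) or the vehicle phosphate-buffered saline (PBS), and 3 libraries of each were sequenced. The paper's figure legend places a further 24 h of culture before this treatment, while its methods and the sample titles name only 24 h. The total time in culture is therefore not settled. All cultured cells therefore came from EM mice, no cultured cells of sham-operated mice were sequenced, and how the 6 mice were joined into 3 replicates was not spelled out.

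Prostaglandin synthesis starts when a phospholipase frees arachidonic acid from membrane lipids. A cyclooxygenase turns that acid into an unstable intermediate, terminal synthases convert the intermediate into prostaglandin E2, prostacyclin and other products, and a dehydrogenase inactivates them. The products act on G protein-coupled receptors of their own, of which the E2 receptors EP2 and EP4 raise cyclic AMP and the F2-alpha receptor raises calcium. In the ovary, the ovulatory surge induces cyclooxygenase-2 in granulosa cells and EP2 is needed for the cumulus to expand, while the F2-alpha receptor is a gene of luteal cells through which the corpus luteum regresses. 14,15-EET is another product of arachidonic acid, made by cytochrome P450 epoxygenases rather than by cyclooxygenases.

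The freshly isolated libraries held 14229123 to 15999234 counts and the cultured ones 21384686 to 29482826. Granulosa markers were present in every fresh library, and so were the genes listed as luteal. The 10 granulosa markers had a summed level of 9703 to 13342 CPM (read counts scaled to a common library size) in Con-mGCs. In EM-mGCs the sum was 5444 to 16674 CPM. In culture the sum of the same markers was 3332 to 4140 CPM, and the aromatase gene Cyp19a1 averaged only 0.146 CPM in PBS. Some EM libraries stood apart: EM-mGC-3 had 21.8% mitochondrial counts against 6.76% to 11.1% in the other fresh libraries, and EM-mGC-4 had the lowest granulosa marker sum, 5444 CPM. Red blood cell markers summed to 15766.5 CPM in EM-mGC-3 and to 2417 to 5690 CPM in the other fresh libraries. Neutrophil markers summed to 45.3 to 188 CPM in EM-mGCs and to 7.995 to 61.3 CPM in Con-mGCs, with the highest sums in EM-mGC-4 and EM-mGC-5.

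The members ranged widely in level, and their order was not the same in fresh and in cultured cells. Levels are set in order between genes only as reads per kilobase of exon and library size (RPKM), scaled over all 16 libraries. In Con-mGCs, Ptges, which encodes the inducible prostaglandin E synthase, was highest with a mean of 40.1 RPKM, followed by Hpgd, the dehydrogenase that inactivates prostaglandins, with 32.5 RPKM. Ptgis, the prostacyclin synthase, had 18.4 RPKM and Ptgfr, the F2-alpha receptor, 17.2 RPKM. Pla2g4a, the cytosolic phospholipase A2, had 6.63 RPKM. The cyclooxygenases and E2 receptors lay lowest, with 1.60 RPKM for Ptgs1, 1.07 for Ptgs2, 0.749 for Ptger4 and 0.639 for Ptger2. Neighbours in this order whose library ranges overlapped were Ptges and Hpgd, Ptgis and Ptgfr, and each adjacent pair from Ptgs1 down to Ptger2. In EM-mGCs all adjacent pairs overlapped apart from Ptgs1 and the next gene below it, Ptger2.

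In cultured PBS cells Ptges was again highest, at 103 RPKM, but Ptgs2 was the next gene, at 24.8 RPKM, with no overlap with its neighbours on either side. Pla2g4a, Hpgd and Ptgis followed closely at 11.4, 11.2 and 10.97 RPKM. Ptger2 had 8.59 RPKM and stood above Ptgs1 at 2.24, Ptgfr at 1.03 and Ptger4 at 0.833 RPKM. In EET cells the order was the same except that Hpgd, at 13.0 RPKM, stood before Pla2g4a, at 10.96 RPKM, and their ranges overlapped.

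**Figure D1:**
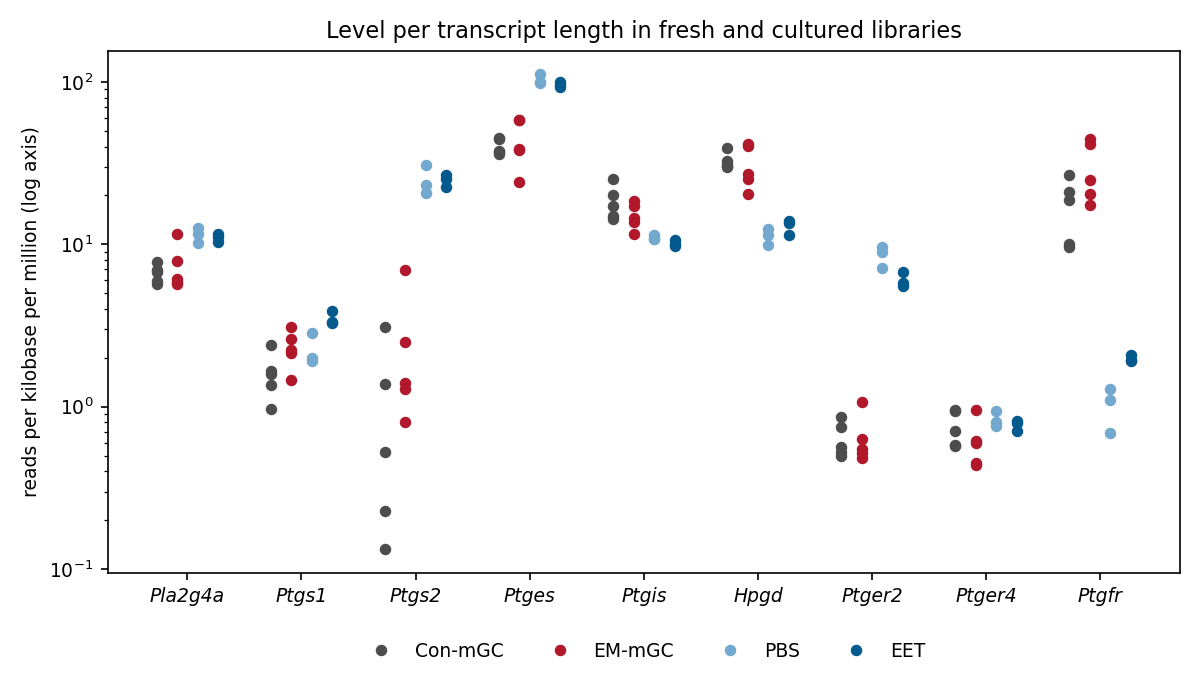
Level of each gene in RPKM (log axis), with a dot for every library of the 4 groups. Ptgs2 and Ptger2 sit higher in the cultured libraries and Ptgfr and Hpgd lower, while Ptgs1, Ptger4 and Pla2g4a in PBS overlap with EM-mGCs.

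Set against fresh EM-mGCs on that joint scale, Ptger2 was 13.2-fold higher and Ptgs2 9.58-fold higher in cultured PBS cells, and Ptgfr was 29.0-fold higher in the fresh cells. Without EM-mGC-4 the Ptgs2 ratio was 16.6. Hpgd was 2.73-fold higher in fresh cells and Ptges 2.37-fold higher in culture. Ptgis had a cultured to fresh ratio of 0.725 without overlap of the libraries, whereas Pla2g4a, with a ratio of 1.55, Ptger4, with 1.37, and Ptgs1, with 0.973, overlapped. Markers of cell types and states also differed, each scaled within its own table. The luteinizing hormone receptor gene Lhcgr averaged 894 CPM in EM-mGCs and 0.288 CPM in PBS. Of the 5 theca markers only Aldh1a1 was higher in culture on this scale, at 469 CPM in EM-mGCs and 3387 CPM in PBS. The others were lower there, with Cyp17a1 at 224 and 0.0316 CPM and Insl3 at 3.65 and 0.168 CPM. Hhip had 1.58 and 0.0360 CPM, and Ptch1 48.6 and 45.4 CPM. On the joint scale Ptch1 was instead higher in culture, with means of 3.16 RPKM in EM-mGCs and 3.68 RPKM in PBS. Endothelial markers summed to 83.6 to 149.9 CPM in EM-mGCs and 3.53 to 4.35 CPM in PBS, and macrophage markers to 115 to 335 and 10.6 to 11.3 CPM. Neutrophil markers summed to 45.3 to 188 and 0.0360 to 0.142 CPM, and stromal markers to 639 to 1488 and 211 to 284 CPM. The smooth muscle sum was instead higher in culture, at 117 to 281 CPM in EM-mGCs and 499 to 665 CPM in PBS. Within it Acta2 averaged 142 and 544 CPM, and Myh11 21.9 and 4.77 CPM. The part of these cell types in the ratios was not tested. These ratios carry no test, since the experiments were run separately and culture cannot be told apart from experiment. Differences of this kind were common: 67.2% of 16236 genes did not overlap between these groups, and 6.54% differed by more than 8-fold.

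The upstream sequences of Ptgs2, Ptger2 and Ptgfr are shown because these 3 genes differed most between fresh and cultured cells. They are the 250 bases before the RefSeq transcription start in GRCm38.p6, read 5′ to 3′ along the gene's strand, and 8 of the 9 members had an entry. The windows lie at chr1:150099781-150100030 on the plus strand for Ptgs2, chr14:44987861-44988110 on the plus strand for Ptger2 and chr3:151837529-151837778 on the minus strand for Ptgfr, and capitals mark matches to the motifs named after them.
Ptgs2: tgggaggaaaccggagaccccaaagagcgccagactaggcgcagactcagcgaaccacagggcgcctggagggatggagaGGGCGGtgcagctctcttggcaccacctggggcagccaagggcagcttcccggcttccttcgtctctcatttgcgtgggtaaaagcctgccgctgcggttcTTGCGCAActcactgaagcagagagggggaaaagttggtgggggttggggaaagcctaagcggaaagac
Ptger2: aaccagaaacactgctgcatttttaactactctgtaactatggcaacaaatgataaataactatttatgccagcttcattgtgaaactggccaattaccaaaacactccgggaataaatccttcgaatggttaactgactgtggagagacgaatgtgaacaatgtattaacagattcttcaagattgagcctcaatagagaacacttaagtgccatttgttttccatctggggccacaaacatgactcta
Ptgfr: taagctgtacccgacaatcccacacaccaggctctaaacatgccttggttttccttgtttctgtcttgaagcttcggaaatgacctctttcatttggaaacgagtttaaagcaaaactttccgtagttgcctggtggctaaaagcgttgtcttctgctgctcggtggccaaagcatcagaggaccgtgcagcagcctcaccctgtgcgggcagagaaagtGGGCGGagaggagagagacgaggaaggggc
Both strands were searched for 8 motifs, and no matches in these windows overlapped. Ptgs2 held a C/EBP motif (TTNNGCAA, in 9.56% of 32851 such windows) starting 69 bases before the start site, and a GC box (GGGCGG, in 32.7% of windows) at 170 bases. Ptgfr held 1 GC box, 30 bases before the start. Ptger2 held no match to these or to the E-box CACGTG (6.02% of windows), the cyclic AMP element core TGACG (17.8%), AP-1 TGANTCA (6.75%), the NR5A site AAGGTCA (4.08%), FOX GTAAACA (3.17%) or TATAAA (12.4%). A match describes letters in this window and was not tied to binding. The G and C content was 61.6% for Ptgs2, 38.0% for Ptger2 and 52.0% for Ptgfr.

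The first comparison asked whether these genes differed between EM-mGCs and Con-mGCs. None of the 9 passed edgeR's quasi-likelihood test at an adjusted p of 0.05, a share of 0% among all 17229 genes tested as well. DESeq2 also called 0 members, against 0.669% of all genes. By unadjusted p under 0.05 only Ptgfr stood out, against 9.44% of all genes. The fitted value was higher in EM-mGCs for 6 members and lower for 3, with a median log2 fold change of 0.11 beside -0.01 over all genes, and no member separated the groups completely, which 1.69% of all genes did (0.917% higher and 0.778% lower in EM-mGCs). In these bulk samples, fewer cells of a type and less RNA per cell cannot be told apart.

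Pla2g4a (ENSMUSG00000056220, chromosome 1, 149705369 to 149837041, minus strand), which supplies arachidonic acid, was at 54.1, 46.8, 41.1, 49.1 and 39.4 CPM in Con-mGCs 1 to 5 and at 42.3, 79.7, 54.3, 39.8 and 40.4 CPM in EM-mGCs 1 to 5. Only EM-mGC-2 lay far above the Con range. That library also had the highest granulosa marker sum of the fresh libraries, 16674 CPM, and the part of these markers in Pla2g4a was not tested. The group means of 46.1 ± 6.0 and 51.3 ± 16.9 CPM (SD, n = 5 each) gave a log2 fold change of 0.15 with a 95% interval of -0.25 to 0.56.

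Among the cyclooxygenases, the constitutive enzyme gene Ptgs1 (ENSMUSG00000047250, chromosome 2, 36120438 to 36142284, plus strand) had 4.08, 6.74, 10.1, 5.83 and 7.04 CPM in Con-mGCs and 12.9, 6.18, 11.04, 9.42 and 9.03 CPM in EM-mGCs. Of the EM libraries, 2 lay above every Con library, and the others lay inside the Con range. The log2 fold change was 0.52 (SE 0.25) with an interval of -0.03 to 1.07 and an adjusted p of 0.540 in edgeR's quasi-likelihood test. Con-mGC-3, the Con library with the highest neutrophil and macrophage marker sums, 61.3 and 214 CPM, was also the Con library with the most Ptgs1. Among EM libraries EM-mGC-1 had the most Ptgs1, but not the highest sum of either marker set. From EM-mGC-1 to EM-mGC-5, neutrophil markers summed to 87.7, 45.3, 76.5, 187 and 188 CPM. Macrophage markers summed there to 203, 115, 335, 243 and 217 CPM. Over all fresh libraries macrophage markers summed to 118 to 214 CPM in Con-mGCs and 115 to 335 CPM in EM-mGCs. All 7 had a fitted value higher in EM-mGCs. None was called by edgeR, and DESeq2 called Cd14. Platelet markers summed to 7.43 to 12.7 and 11.7 to 23.7 CPM. The part of these leukocyte and platelet markers in Ptgs1 was not tested.

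Ptgs2 (ENSMUSG00000032487, chromosome 1, 149975782 to 149983978, plus strand), the cyclooxygenase that the ovulatory surge induces, was the most variable member. It had 0.658, 15.4, 6.88, 2.65 and 1.13 CPM in Con-mGCs, which rest on 10 to 251 reads, and 6.34, 4.01, 12.4, 34.7 and 6.96 CPM in EM-mGCs, from 61 to 509 reads. The highest library was 23.4-fold above the lowest within Con-mGCs and 8.66-fold within EM-mGCs, so the spread inside each group exceeded the 2.40-fold difference of the means. That difference corresponded to a log2 fold change of 1.27 (SE 0.78) with an interval from -0.43 to 2.97 and an adjusted p of 0.614 in edgeR's test. The value was 0.47 when EM-mGC-4 was left out and 2.18 without Con-mGC-2. EM-mGC-4 was also the library with the lowest granulosa marker sum and, at 187 CPM, a high neutrophil marker sum. By contrast, EM-mGC-5 had a neutrophil marker sum of 188 CPM with 6.96 CPM of Ptgs2. Con-mGC-2 had a neutrophil marker sum of 10.8 CPM with 15.4 CPM of Ptgs2. The 6 neutrophil markers that could be tested all had higher fitted values in EM-mGCs (median 2.68 on the log2 scale), and all 6 had an unadjusted p under 0.05. None was called by edgeR, and DESeq2 called S100a8, S100a9, Cxcr2 and Mmp9. Their part in the Ptgs2 levels was not tested.

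Among the terminal synthases, Ptges (ENSMUSG00000050737, chromosome 2, 30779483 to 30819875, minus strand) had 193, 158, 153, 194 and 162 CPM in Con-mGCs and 164, 247, 249.7, 103 and 163 CPM in EM-mGCs. The EM libraries reached both above and below the Con range, and the log2 fold change was 0.11 (SE 0.21, edgeR adjusted p = 0.881). Ptgis (ENSMUSG00000017969, chromosome 2, 167033725 to 167082524, minus strand) had 70.6, 41.9, 39.6, 56.6 and 48.3 CPM against 40.4, 38.4, 51.6, 48.2 and 32.0 CPM. The ranges overlapped, and the log2 fold change was -0.29 within an interval of -0.66 to 0.09. Markers of other ovarian cells were also lower in EM-mGCs: stromal markers summed to 1588 to 1753 CPM in Con-mGCs and 639 to 1488 CPM in EM-mGCs, with 6 of 7 lower, and endothelial markers to 150.5 to 175 and 83.6 to 149.9 CPM, with 6 of 6 lower. Of the smooth muscle markers 4 of 5 were lower, with sums of 222 to 367 and 117 to 281 CPM. None was called by edgeR, while DESeq2 called Col1a1, Myh11 and Cnn1, and the part of these cells in Ptgis was not tested. Hpgd (ENSMUSG00000031613, chromosome 8, 56747620 to 56774078, plus strand), the breakdown enzyme, had 54.5, 59.5, 55.9, 56.5 and 71.7 CPM in Con-mGCs and 45.5, 75.2, 73.0, 37.5 and 49.2 CPM in EM-mGCs. Its Con libraries were tight and its EM libraries spread to both sides, with a log2 fold change of -0.09 (SE 0.18, edgeR adjusted p = 0.890). Granulosa markers summed to 13211, 10186, 9703, 13342 and 10836 CPM in Con-mGCs 1 to 5. In EM-mGCs 1 to 5 they summed to 9303, 16674, 10373, 5444 and 9921 CPM. Their part in Ptges and Hpgd was not tested. An unnamed transcript, Gm45540, overlaps Hpgd on the same strand and had 6 to 129 reads in fresh libraries, so reads of Hpgd may be split with it.

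Ptgfr (ENSMUSG00000028036, chromosome 3, 151502139 to 151543267, minus strand) was the highest per length of the 3 member receptors in fresh cells. It had 137, 155, 195, 71.7 and 74.2 CPM in Con-mGCs and 305, 129, 149.6, 184 and 327 CPM in EM-mGCs. EM-mGC-1 and EM-mGC-5 lay above every Con library, and the other 3 EM libraries lay inside the Con range. The means of 127 ± 53.3 and 219 ± 91.2 CPM (SD, n = 5 each) differed 1.73-fold, with an interval of 1.06 to 2.83 that leaves out no change before adjustment for the number of genes. The log2 fold change was 0.79 (SE 0.33), with an adjusted p of 0.510 in edgeR's test, and ran from 0.60 to 1.00 when single libraries were left out. Without EM-mGC-3 or EM-mGC-4 it was 0.90 or 0.85.

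The E2 receptor genes were both low in fresh cells. Ptger2 (ENSMUSG00000037759, chromosome 14, 45225652 to 45241277, plus strand), encoding EP2, had 3.16, 4.23, 2.94, 4.97 and 2.80 CPM in Con-mGCs and 2.72, 3.55, 2.90, 6.004 and 3.10 CPM in EM-mGCs. The ranges almost coincided apart from EM-mGC-4, and the log2 fold change was 0.02 within an interval of -0.58 to 0.61. Ptger4 (ENSMUSG00000039942, chromosome 15, 5236142 to 5273668, minus strand), encoding EP4, had 6.77, 5.15, 6.82, 4.24 and 4.12 CPM against 3.13, 3.22, 6.89, 4.30 and 4.41 CPM, a log2 fold change of -0.31 within -0.87 to 0.26. Ptger4 overlaps Ttc33 on the opposite strand, which had 182 to 337 reads in fresh libraries, and the strand setting of the counting was not stated.

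**Figure D2:**
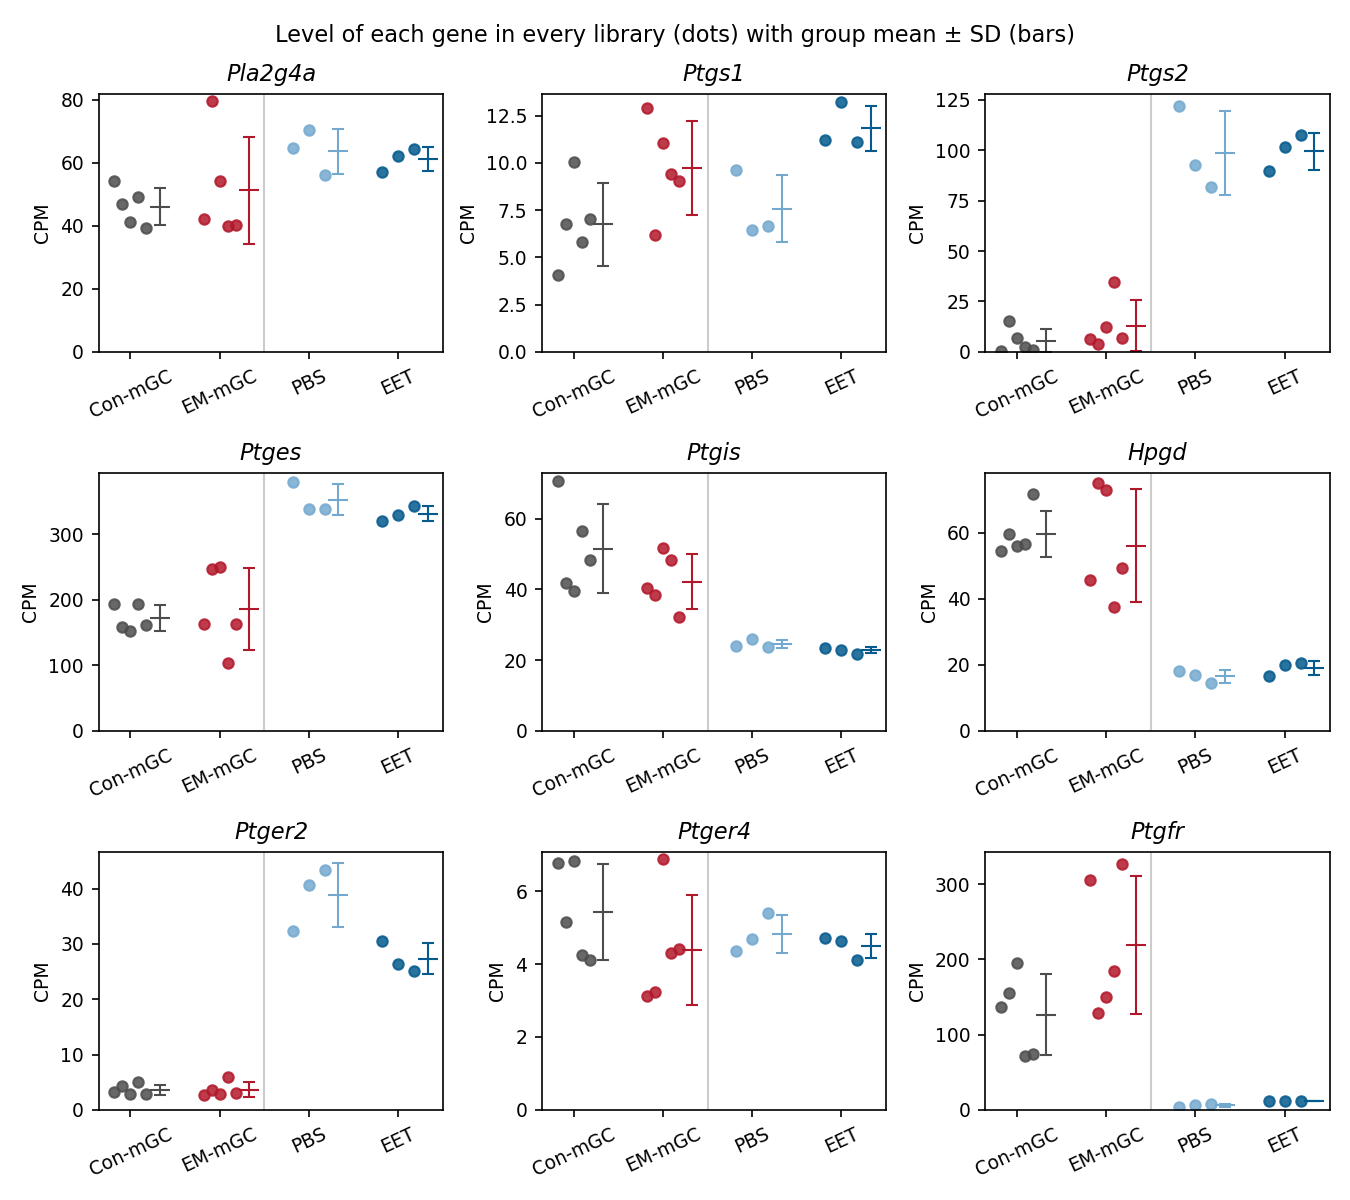
Level in CPM of each of the 9 genes in every library (dots) with the group mean and SD beside them, fresh groups left and cultured groups right of the line, and the lower bar cut at 0 where the SD exceeds the mean. Ptgs2 spreads from 0.658 to 34.7 CPM over the fresh libraries, and PBS and EET separate for Ptgs1, Ptgis, Ptger2 and Ptgfr.

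Genes whose level followed Ptgs2, Ptgs1 and Ptgfr most closely over the 10 fresh libraries were sought among 12954 genes by Pearson's r of log2 CPM, as a description of these libraries. For Ptgs2 they were Hccs (r = 0.96), Ccl3 (0.95) and Nr4a3 (0.94). For Ptgs1 they were Pde4b (0.98), Ly9 (0.95) and Sgpl1 (0.94), and for Ptgfr Stxbp6 (0.95), Tpst2 (0.93) and Cyyr1 (0.93). Without the 2 libraries farthest from the median, r was 0.85 to 0.91 for the genes of Ptgs2. It was 0.89 to 0.95 for those of Ptgs1 and 0.88 to 0.94 for those of Ptgfr. As the highest of 12954 values over only 10 libraries, these r are large by selection, and no chance level was computed. The points share the same libraries, in which marker sums of leukocytes also varied.

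The second comparison asked whether 24 h of 14,15-EET changed these genes in cultured EM-mGCs. Ptgfr rose and Ptger2 fell, and both had an adjusted p under 0.05 in edgeR's quasi-likelihood fit of all genes. These are 2 of 9 members, against 1.22% of the 15050 genes tested (0.498% higher and 0.724% lower). DESeq2 called 3 members, with Ptgs1 added, and 2.62% of the genes it tested. Ptgs1 came next, with an adjusted p of 0.0521, and the other 6 members did not pass. The groups did not overlap for Ptgs1, Ptgis, Ptger2 and Ptgfr, which was so for 17.6% of all genes (8.48% higher and 9.17% lower in EET). Fitted values were higher in EET for 4 members and lower for 5, with a median log2 fold change of -0.06 beside 0.00107 for all genes.

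Ptgfr had 4.08, 6.54 and 7.55 CPM in PBS libraries 1 to 3, from 86 to 210 reads, and 12.3, 11.6 and 11.4 CPM in EET libraries 1 to 3, from 272 to 361 reads. Every EET library was above every PBS library, and the EET libraries lay close together. The means of 6.06 ± 1.79 and 11.7 ± 0.462 CPM (SD, n = 3 each) differed 1.91-fold (interval 1.49 to 2.45), a log2 fold change of 0.94 (SE 0.16) with an adjusted p of 0.0156 in edgeR's test. The value stayed between 0.74 and 1.13 when single libraries were left out. The call was lost without EET-1 (edgeR adjusted p = 0.0577), EET-2 (0.0769) or EET-3 (0.0925), and it was kept under all 6 other settings tried. Even in EET the level on the joint scale was far below that of fresh EM-mGCs, with means of 1.98 against 29.8 RPKM.

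Ptger2 had 32.3, 40.7 and 43.4 CPM in PBS and 30.5, 26.4 and 25.04 CPM in EET. All EET libraries were below all PBS libraries, though EET-1 and PBS-1 were near each other. The means were 38.8 ± 5.78 and 27.3 ± 2.83 CPM (SD, n = 3 each), so EET cells had 1.42-fold less, a log2 fold change of -0.51 (SE 0.10) with an adjusted p of 0.0365 in edgeR's test. The call was lost without PBS-3 (edgeR adjusted p = 0.147), EET-2 (0.184) or EET-3 (0.248), where the log2 fold change was between -0.48 and -0.42, and was kept under all 6 other settings. Ptger4, the other receptor for E2, had 4.36, 4.69 and 5.40 CPM in PBS and 4.72, 4.65 and 4.10 CPM in EET. These overlapped, and the log2 fold change of -0.10 had an interval of -0.41 to 0.20.

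Of the cyclooxygenases, Ptgs1 came close to the threshold and Ptgs2 did not. Ptgs1 had 9.63, 6.46 and 6.65 CPM in PBS and 11.2, 13.2 and 11.1 CPM in EET, without overlap. The means of 7.58 ± 1.78 and 11.8 ± 1.19 CPM (SD, n = 3 each) gave a 1.58-fold difference and a log2 fold change of 0.66 (SE 0.15), within an interval of 0.34 to 0.97, with an adjusted p of 0.0521 in edgeR's test. The adjusted p was 0.00236 by DESeq2, 2.14e-06 by edgeR without a filter on low counts, and 0.0318 by edgeR with the replicate number as a block. Without PBS-1, the PBS library with the most Ptgs1, edgeR's adjusted p was 0.00160, and with any other library left out it ranged from 0.0640 without PBS-2 to 0.264 without EET-2. It stayed at 0.05 or above with RLE or upper-quartile normalization and with at least 10 counts in every library. Ptgs2 had 122, 92.8 and 81.6 CPM in PBS and 89.6, 101.5 and 107.5 CPM in EET, with every EET library inside the PBS range. The log2 fold change was 0.01, and its interval of -0.24 to 0.27 leaves out changes of more than 1.21-fold upwards.

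None of the other enzymes passed the test in culture. Pla2g4a had 64.5, 70.4 and 56.1 CPM in PBS and 57.0, 62.0 and 64.5 CPM in EET, a log2 fold change of -0.06 (interval -0.23 to 0.11). Ptges had 380.2, 339 and 339 CPM against 320.0, 329.8 and 343 CPM, a log2 fold change of -0.09 (interval -0.22 to 0.03). Per length, Ptges had the highest level of all members in both cultured groups. Ptgis had 24.0, 25.8 and 23.8 CPM against 23.5, 22.8 and 21.9 CPM, so that its groups separated narrowly with a log2 fold change of -0.11 and an adjusted p of 0.548 in edgeR's test. Hpgd had 18.1, 16.9 and 14.5 CPM against 16.7, 20.03 and 20.4 CPM, a log2 fold change of 0.21 (interval -0.01 to 0.44) with an adjusted p of 0.434 in edgeR's test.

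**Figure D3:**
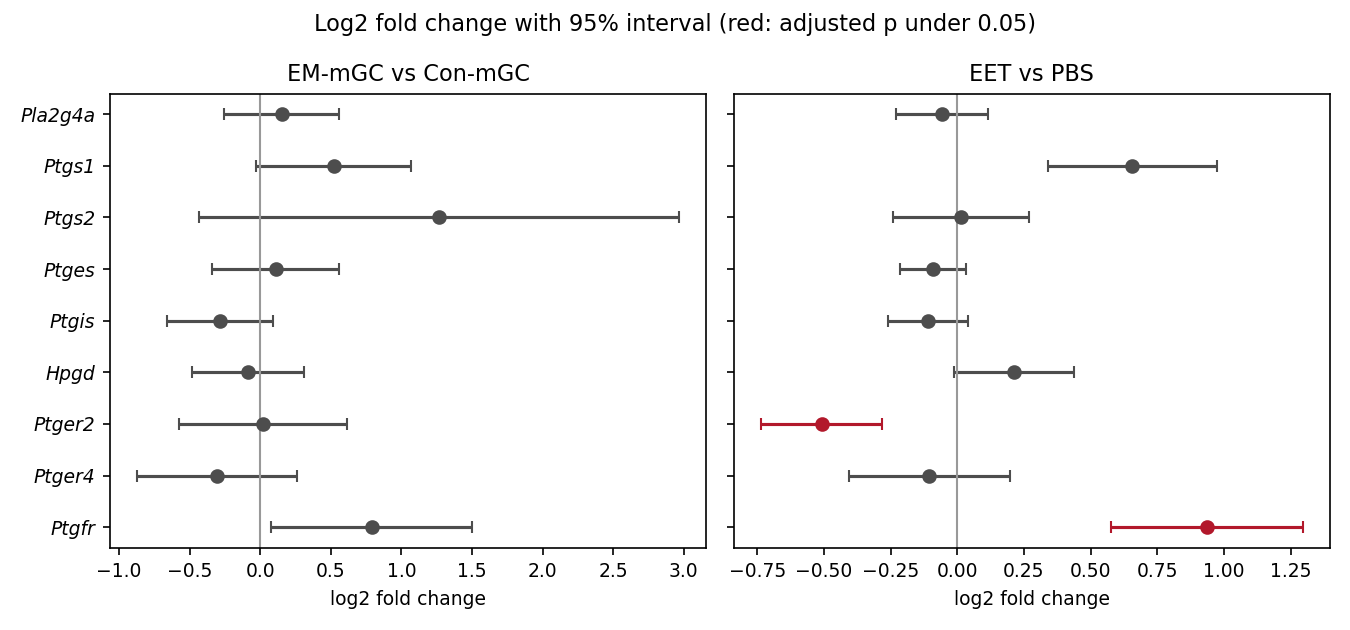
Log2 fold change of each gene with its 95% interval in EM-mGCs against Con-mGCs (left) and in EET against PBS (right), red where edgeR's adjusted p was under 0.05. The intervals of the fresh comparison are wider, up to -0.43 to 2.97 for Ptgs2, and the 2 red points are Ptgfr and Ptger2 in culture.

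**Figure D4:**
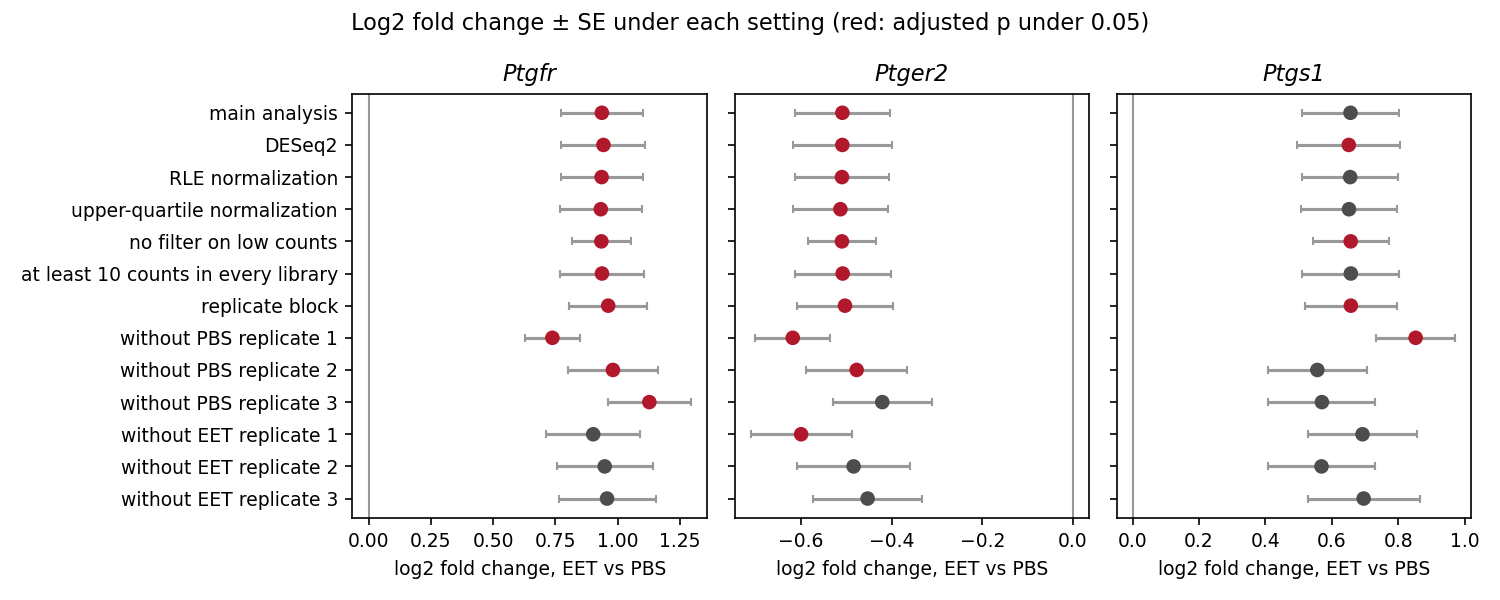
Log2 fold change with its standard error of Ptgfr, Ptger2 and Ptgs1 in EET against PBS under each setting, red where the adjusted p was under 0.05. The direction is the same throughout, and the calls change mainly where 1 of the 6 libraries is left out.

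Within each library the balance between paired functions was also read per length. Ptgs2 stood at 0.137 to 1.94 times Ptgs1 in Con-mGCs and at 0.417 to 3.13 times in EM-mGCs, and at 10.4 to 12.2 times in PBS and 6.52 to 8.22 times in EET. In culture the level of Ptgs1 separated PBS from EET and that of Ptgs2 did not. Ptges over Hpgd was 0.966 to 1.51 in Con-mGCs, 1.18 to 1.54 in EM-mGCs, 8.60 to 10.0 in PBS and 7.05 to 8.19 in EET. Of the summed level of Ptgfr, Ptger2 and Ptger4, Ptgfr made up 86.9% to 94.8% in Con-mGCs and 93.3% to 97.8% in EM-mGCs, but 8.05% to 10.8% in PBS and 21.6% to 23.6% in EET. Ptger2 made up 81.3% to 83.2% of it in PBS and 67.7% to 70.0% in EET. Ptges over Ptgis was 1.78 to 2.52 in Con-mGCs, 1.40 to 4.201 in EM-mGCs, 8.57 to 10.4 in PBS and 8.87 to 10.2 in EET. PBS and EET separated in all of these measures but Ptges over Ptgis, and the fresh groups overlapped in all. Over the 10 tests of 5 measures in 2 comparisons, 2-sided exact permutation tests gave p = 0.0714 to 0.294 in fresh cells (lowest for the Ptgfr share) and 0.1 to 0.8 in culture, where 0.1 is the smallest p that 3 against 3 libraries allow, and no adjusted p was below 0.2.

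**Figure D5:**
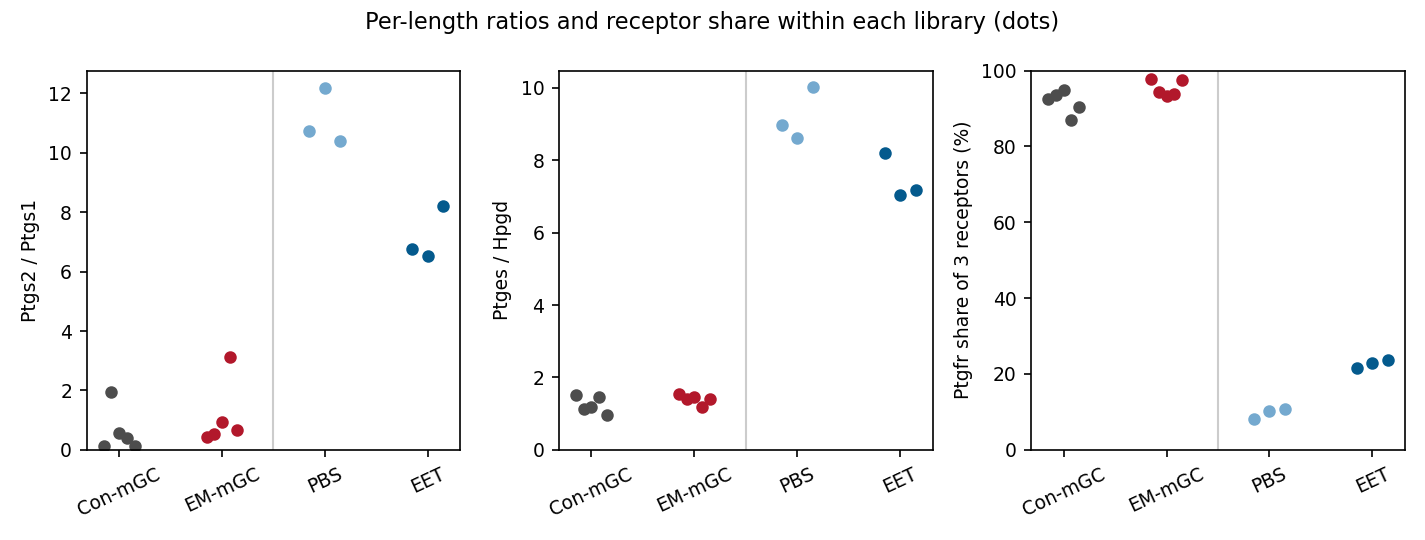
Ptgs2 over Ptgs1, Ptges over Hpgd and the share of Ptgfr in the summed level of 3 receptors (%), all per length, with a dot for every library. PBS lies at 10.4 to 12.2 for the first ratio and EET at 6.52 to 8.22, and the Ptgfr share runs from 8.05% to 10.8% in PBS and from 21.6% to 23.6% in EET.

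The rest of the pathway gave no call by edgeR in either comparison. Of the other phospholipase A2 genes, 13 could be tested in fresh cells, 3 with a higher and 10 with a lower fitted value in EM-mGCs and a median log2 fold change of -0.12, and 7 in culture. Per length the highest in Con-mGCs were Pla2g4c, Pla2g15 and Pla2g6, at means of 11.1, 10.96 and 10.8 RPKM. Of 11 other terminal synthases tested in fresh cells, 9 had a higher and 2 a lower fitted value in EM-mGCs (median 0.11), and in culture 4 of 8 were higher in EET. Per length Akr1c18 was highest of them in fresh cells, with 89.7 RPKM in Con-mGCs. It encodes an enzyme that inactivates progesterone and can form prostaglandin F2-alpha, and it had 117 ± 115 CPM in Con-mGCs and 288 ± 229 CPM in EM-mGCs (SD, n = 5 each), with an adjusted p of 0.627 in edgeR's test. Akr1b3, an aldose reductase that can also form F2-alpha and the highest in culture, had 245 ± 27.6 and 225 ± 58.2 CPM in Con-mGCs and EM-mGCs (SD, n = 5 each). In culture Akr1b3 had 788 ± 69.7 CPM in PBS and 656 ± 14.8 CPM in EET (SD, n = 3 each), a log2 fold change of -0.27 with an adjusted p of 0.0709 in edgeR's test and 0.00384 in DESeq2. Of the other receptor genes, 7 were tested in fresh cells, 3 with a higher and 4 with a lower fitted value, and Ptgdr, a D2 receptor, had no read in any library. Ptger3, encoding the E2 receptor EP3, had 2.61 ± 0.743 CPM in PBS and 1.36 ± 0.168 CPM in EET, with an adjusted p of 0.0847 in edgeR and 0.0440 in DESeq2. Per length the highest of the listed receptors other than the members was the nuclear receptor Pparg, at 23.1 RPKM in Con-mGCs. The 6 transport and breakdown genes were split evenly in fresh cells, and 4 of 6 were higher in EET. Zadh2 was the highest of them per length, at 39.9 RPKM in Con-mGCs. Slco3a1, a transporter, had 91.1 ± 13.9 CPM in PBS and 73.9 ± 4.86 CPM in EET, a log2 fold change of -0.30 with an adjusted p of 0.166 in edgeR and 0.0462 in DESeq2.

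Genes of the ovulatory response also gave no call. In EM-mGCs 7 of 12 had a higher and 5 a lower fitted value (median log2 fold change 0.11), and in EET 7 of 11 had a higher and 4 a lower one (median 0.21). Star, the highest of them per length in fresh cells and the carrier of cholesterol into mitochondria, had 718 ± 207 CPM in Con-mGCs and 572 ± 286 CPM in EM-mGCs. Of the genes listed as luteal, 9 of 10 had a higher fitted value in EM-mGCs (median 0.19) with none called. The lower one was Inhba. The summed level of the list was 15209 to 20929 CPM in Con-mGCs and 18280 to 23898 CPM in EM-mGCs, where the mean of Ptgfr was higher. Cyp11a1, Hsd3b1 and Inhba had the largest means of the list, 6551, 5379 and 2449 CPM in Con-mGCs. The sum is therefore not a measure of luteal cells. Of 8 granulosa markers tested in culture, 3 had a higher and 5 a lower fitted value in EET (median log2 fold change -0.08). Among them Inha fell in EET with a log2 fold change of -0.36 and an adjusted p of 0.0430 in edgeR's test. Inhbb had a log2 fold change of 0.13, with an adjusted p of 0.285 in edgeR's test. Foxl2 had a log2 fold change of -0.22, with an adjusted p of 0.0776 in edgeR and 0.0304 in DESeq2. Of 4 smooth muscle markers tested in culture, 2 had a higher and 2 a lower fitted value in EET. Cnn1 fell from 9.44 ± 1.30 CPM in PBS to 5.80 ± 0.321 CPM in EET (SD, n = 3 each). Its log2 fold change was -0.70, with an adjusted p of 0.0166 in edgeR's test. Myh11 had 4.77 ± 0.857 CPM in PBS and 6.96 ± 1.24 CPM in EET (SD, n = 3 each). The sum of the 5 smooth muscle markers overlapped at 499 to 665 CPM in PBS and 433 to 504 CPM in EET. Of 6 stromal markers tested in culture, 2 had a higher and 4 a lower fitted value in EET. Col1a2 had 15.9 ± 2.31 CPM in PBS and 22.5 ± 4.07 CPM in EET (SD, n = 3 each). Its log2 fold change was 0.50, with an adjusted p of 0.110 in edgeR and 0.012 in DESeq2. The part of these in Ptgfr and Ptger2 was not tested.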

How the data were processed

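RNA was sequenced as stranded poly(A) libraries with 150 bp reads from both ends, and the authors deposited 2 tables of raw counts per Ensembl gene, made with featureCounts and not normalized. The submitters' processing notes name fastp, HISAT2, StringTie and GRCm39. Versions, strand setting and treatment of overlapping genes are not given in the sources used here. Every one of the 16 sample columns was used (0 left out). Groups came from the sample titles, and that libraries are separate mice or cultures rests on the labels and methods. Replicate libraries differed beyond counting noise, so none was the same library counted again. That check cannot show whether replicates came from separate cells.

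Each experiment was fitted alone with edgeR 4.0.16 in R 4.3.3: filterByExpr with the group, TMM factors and quasi-likelihood tests, with p-values adjusted by Benjamini-Hochberg over all genes tested and called at 0.05. CPM are TMM-normalized, RPKM use exon lengths of GENCODE vM21 (GRCm38) and TMM over all 16 libraries, and errors are SD. Intervals cover 95% and are unadjusted. The steps were tested on simulated counts. Gene coordinates are those in the tables, with the build that the processing notes name. Upstream sequences are from RefSeq for GRCm38.p6, and protein sequences were not used here.

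Alternatives were DESeq2 1.42.0, upper-quartile or RLE factors, all genes kept without a filter, a minimum of 10 counts in every library, the replicate number as a block, and each library left out. The design text describes paired cultures but does not say that numbers mark the pairs. In culture the deviations from the group mean of PBS and EET libraries that share a number had correlations of 0.0602, 0.0980 and -0.0237. For libraries with unlike numbers they ran from -0.133 to 0.0741. These ranges overlap, so they cannot decide whether numbers mark pairs. The main analysis had no block because the labels do not mark the pairs. The members, gene lists and tests were chosen with earlier results of these data known. Named genes are all members, any pathway or target gene called, otherwise the highest of a list by RPKM, the 3 genes closest to Ptgs2, Ptgs1 and Ptgfr, and genes that only DESeq2 called or that were picked after their values were seen (Ptger3, Ptgdr, Slco3a1, Inha, Foxl2, Cyp19a1, Lhcgr, Aldh1a1, Cnn1 and the other markers).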

Additional observations from a re-analysis of the deposited data

Results flagged for a closer look

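In the EM-mGC group, the level of Ptgs2 in EM-mGC-4, 34.7 CPM, lay far from the other libraries, of which the next was at 12.4 CPM. In the same library Ptger2 was at 6.004 CPM, with the next library at 3.55 CPM. These were 2 of 18 groups of fresh values checked with Dixon's test at 95%, which chance alone would mark in about 5% of groups. EM-mGC-4 also had the lowest granulosa marker sum of the fresh libraries, 5444 CPM, and a neutrophil marker sum of 187 CPM. EM-mGC-5, with a neutrophil marker sum of 188 CPM, had 6.96 CPM of Ptgs2 and 3.10 CPM of Ptger2. The part of these markers in both levels was not tested.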

How the results depend on the processing

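In EM-mGCs against Con-mGCs no member was called under any alternative, while the count of all genes called was 113 with DESeq2, 4 without a filter, 2 with the replicate block and 0 to 46 when single libraries were left out (46 without Con-mGC-3, 1 without EM-mGC-1). Of 144 member results 135 kept direction and call and 9 reversed, all with values near 0 in the main analysis. The log2 fold change of Ptger2 was -0.012 with the block and ran from -0.24 to 0.16 with single libraries left out (below 0 without Con-mGC-1, Con-mGC-3, Con-mGC-5 or EM-mGC-4). That of Pla2g4a ran from -0.063 (without EM-mGC-2) to 0.23, that of Ptges from -0.025 (below 0 without EM-mGC-2 or EM-mGC-3) to 0.26, and that of Hpgd from -0.22 to 0.027 (above 0 without EM-mGC-4). In EET against PBS 341 genes were called with DESeq2, 662 without a filter, 341 with the replicate block and 48 to 436 with single libraries left out (350, 436 and 144 without PBS-1, PBS-2 and PBS-3, and 122, 61 and 48 without EET-1, EET-2 and EET-3). Members called ran from 0 to 3 over the libraries left out, with 1 without PBS-3 or EET-1 and 0 without EET-2 or EET-3, and were 3, Ptgs1 added, with DESeq2, no filter or the block. If the numbers mark the pairs, the block is the nearer design, and it changed no other member call. Of 108 member results 93 kept direction and call, 6 lost the call, 4 gained it and 5 reversed. Pla2g4a ran from -0.14 to 0.021 (above 0 without PBS-2), and Ptgs2 from -0.11 to 0.19 (below 0 without PBS-2, PBS-3, EET-2 or EET-3). Chosen after seeing the data, scaling in each table alone lowered every cultured to fresh ratio alike, among them Ptger2 from 13.2 to 10.6, Ptgs2 from 9.58 to 7.67 and Ptgis from 0.725 to 0.582, the one that moved beyond its spread. With single libraries left out Ptgs1 ran from 0.841 to 1.06 and crossed 1 (without EM-mGC-1, EM-mGC-3, PBS-2 or PBS-3), and Ptgs2 ran from 8.17 to 16.6 (without EM-mGC-4). With 3 libraries a group, leaving out 1 leaves 2, and low counts limit Ptgs2, Ptger2 and Ptger4 in fresh and Ptgfr in cultured cells. The cause of these changes was not tested.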

Other observations

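Relations among the members over the 10 fresh libraries were computed for 36 pairs of log2 CPM, and none had an adjusted p under 0.05 by Pearson's r or Spearman's rho (0 pairs). The closest were Ptges with Hpgd, with r = 0.79 (permutation p = 0.00655, adjusted 0.174) and rho = 0.54 (permutation p = 0.112, adjusted 0.493), and Pla2g4a with Ptges, with r = 0.78 (permutation p = 0.00969, adjusted 0.174) and rho = 0.81 (permutation p = 0.00685, adjusted 0.247). Without the 2 libraries farthest from the median r was 0.49 and 0.65. Within groups r was -0.41 in Con-mGCs and 0.97 in EM-mGCs for Ptges with Hpgd, and 0.80 and 0.78 for Pla2g4a with Ptges, each over only 5 libraries. The granulosa marker sums also varied over these libraries, and their part in the relations was not tested.

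In culture Akr1c18 had 1.52 ± 0.443 CPM in PBS and 1.76 ± 0.384 CPM in EET (SD, n = 3 each). Tbxas1, the thromboxane synthase, which platelets and macrophages also express, had 3.85 ± 1.91 CPM in Con-mGCs and 8.74 ± 3.75 CPM in EM-mGCs, a log2 fold change of 1.17 with an adjusted p of 0.436 in edgeR's test. Tbxas1 was picked after its values were seen.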
